A study of Mus musculus with 9 samples.

Results

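Akr1c12, Akr1c13 and Akr1c18 are 3 mouse genes of the aldo-keto reductase family 1C. They were taken from a table of 35557 probe sets by a rule: every probe set that the platform annotation gives to a single symbol, and that symbol one of the 3. Each gene was measured by 1 probe set (10407445 for Akr1c12, 10403303 for Akr1c13 and 10407435 for Akr1c18), and the 3 genes stand among 19938 genes analysed. They were picked on their measured levels, because Akr1c12 and Akr1c13 were low with FGFR1OP-RET. Their levels in that group against the other groups are therefore given as a description with no test, for Akr1c18 as well. The difference between BCR-RET and BCR-ABL took no part in the choice and was tested.

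The cells were BaF3, a mouse haematopoietic line that depends on interleukin-3 (IL-3). They carried a retrovirus with the fusion FGFR1OP-RET, BCR-RET or BCR-ABL (named BCR-ABL1P210 in the study's design) and were sorted for EGFP fluorescence, a treatment that all 3 groups share. Both RET fusions hold the kinase RET, BCR-RET shares its partner BCR with BCR-ABL, and each group had 3 Affymetrix MouseGene 1.0 ST arrays (9 in all). Uninfected cells were not analysed here, so each value compares a fusion with another fusion. The labels do not say if a group's 3 arrays stem from separate cultures or infections, or if IL-3 was in the medium. The p-values therefore rest on array-to-array spread alone, part of which may be technical.

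Aldo-keto reductases use NADPH or NADH to interconvert carbonyl groups and alcohols. The 1C branch acts on steroids, prostaglandins and other carbonyl compounds. Akr1c18 is the hydroxysteroid dehydrogenase that inactivates progesterone in the mouse ovary. Akr1c12 and Akr1c13 are closely related oxidoreductases, and Akr1c12 was first described in mouse myeloid cells as a gene whose mRNA responds to IL-3.

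The 3 genes lie in a cluster on mouse chromosome 13. In the order of the RefSeq gene table (assembly GRCm38.p6, used for names and order), the cluster runs Akr1c14, Akr1c18, Akr1c13, Akr1c19, Akr1c12, Akr1c6, Akr1c20, Akr1c21 and Akr1e1. Akr1c12 and Akr1c13 are thus separated by 1 gene, Akr1c19, and are read from opposite strands. Their promoter sequences are shown because these 2 genes moved together while Akr1c18 did not follow them by a like amount. Akr1c18 lay near the low end of the arrays, where differences are compressed. Whether the sequences bear on the levels was not tested. Each sequence runs 5′ to 3′ in the direction of the gene, from 250 bases before to 50 after the RefSeq start (GRCm38.p6). Akr1c12 is at chr13:4279350-4279649 on the minus strand, Akr1c13 at chr13:4190937-4191236 on the plus strand and Akr1c18 at chr13:4150597-4150896 on the minus strand. Capitals mark 2 short words on either strand. The word GGAAGT holds the core letters that ETS factors bind, and CATTAG is a repeat seen on reading the sequences.
Akr1c12: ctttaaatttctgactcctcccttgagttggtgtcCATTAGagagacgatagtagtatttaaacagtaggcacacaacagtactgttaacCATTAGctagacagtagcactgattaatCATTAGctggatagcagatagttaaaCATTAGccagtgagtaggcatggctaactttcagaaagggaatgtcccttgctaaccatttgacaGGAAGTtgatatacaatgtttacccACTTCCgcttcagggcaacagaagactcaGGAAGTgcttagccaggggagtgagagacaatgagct
Akr1c13: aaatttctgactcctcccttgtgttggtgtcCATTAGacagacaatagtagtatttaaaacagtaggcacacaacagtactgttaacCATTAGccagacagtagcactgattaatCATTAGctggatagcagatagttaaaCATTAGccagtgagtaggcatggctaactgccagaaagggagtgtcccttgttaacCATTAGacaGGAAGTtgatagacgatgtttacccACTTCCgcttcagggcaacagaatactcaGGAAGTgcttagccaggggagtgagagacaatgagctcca
Akr1c18: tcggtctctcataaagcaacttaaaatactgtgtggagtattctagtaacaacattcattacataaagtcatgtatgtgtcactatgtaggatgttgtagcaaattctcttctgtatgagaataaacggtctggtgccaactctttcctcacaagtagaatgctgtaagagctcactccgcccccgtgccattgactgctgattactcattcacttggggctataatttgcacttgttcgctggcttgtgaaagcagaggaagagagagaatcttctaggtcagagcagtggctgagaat

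The Akr1c12 and Akr1c13 promoters matched at 284 of 296 aligned bases (95.9%, with 1 gap base). The 27 other pairs among the 8 cluster promoters in the RefSeq table matched at 60.1% to 74.1% of aligned bases, after gaps were placed to favour matches. The highest of these was Akr1c19 with Akr1c12. GGAAGT occurred 3 times in the Akr1c12 window and 3 times in the Akr1c13 window, and 0 times in that of Akr1c18. The windows of Akr1c6 and Akr1c21 held 1 copy each of GGAAGT. At least 1 copy stood in 23.8% of all 32851 promoters of this length, and at least 3 copies in 0.557%. CATTAG occurred 4 times in Akr1c12, 5 times in Akr1c13, 3 times in Akr1c19 and 0 times in Akr1c18. Akr1c6 and Akr1c21 held 1 copy each of CATTAG. At least 1 copy of it stood in 7.36% of promoters. Only 9 promoters of the table had 3 or more, of which 3 belonged to Akr1c genes.

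Both words were chosen after the sequences were read, so their counts are a description. The letters TTCNNNGAA, the core that STAT factors bind, stood on either strand in 8.30% of all promoters. The NRF2 core TGACNNNGC stood in 12.4%, and the word AGATAA, which GATA factors bind, in 11.2%. None of the 3 members' windows held any of these 3. In the cluster, the Akr1c19 window held 1 STAT, 1 NRF2 and 3 AGATAA matches, and that of Akr1e1 held 1 AGATAA match. At these shares most promoters lack each of them. Overlapping matches were counted. A match is a run of letters and does not show that a factor binds.

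Akr1c12 had log2 values of 9.74, 9.51 and 9.90 on FGFR1OP-RET arrays 1, 2 and 3, against 10.50, 10.94 and 11.01 on the BCR-RET arrays and 10.69, 10.97 and 10.99 on the BCR-ABL arrays. All 3 FGFR1OP-RET arrays lay below all 6 others, with a gap of 0.60, while the ranges of BCR-RET and BCR-ABL overlapped. The means were 9.72 ± 0.20 with FGFR1OP-RET, 10.81 ± 0.27 with BCR-RET and 10.89 ± 0.17 with BCR-ABL (SD, n = 3 each). The log2 difference of FGFR1OP-RET was -1.17 against BCR-ABL and -1.10 against BCR-RET (SE 0.15 each). On the linear scale of the array signal this is 44.5% of the BCR-ABL level and 46.7% of the BCR-RET level.

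Akr1c13 was lowest with FGFR1OP-RET as well. Its log2 values were 9.25, 9.21 and 9.62 on the FGFR1OP-RET arrays, against 10.01, 10.44 and 10.58 on the BCR-RET arrays and 10.13, 10.40 and 10.44 on the BCR-ABL arrays. Again no FGFR1OP-RET array reached any of the other 6, with a gap of 0.39, and BCR-RET and BCR-ABL overlapped. The means were 9.36 ± 0.23 with FGFR1OP-RET, 10.34 ± 0.30 with BCR-RET and 10.32 ± 0.17 with BCR-ABL. FGFR1OP-RET differed by -0.96 from BCR-ABL and by -0.98 from BCR-RET (SE 0.16 each), or 51.3% and 50.6% of those levels.

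Akr1c18 stayed near the low end of each array. Its log2 values were 5.07, 5.36 and 5.29 on the FGFR1OP-RET arrays, against 5.27, 5.39 and 5.43 on the BCR-RET arrays and 5.35, 5.35 and 5.35 on the BCR-ABL arrays. The groups overlapped, and the FGFR1OP-RET mean of 5.24 ± 0.15 was set by array 1. The differences of FGFR1OP-RET were -0.11 from BCR-ABL and -0.12 from BCR-RET (SE 0.08 each). Between 7.05% and 10.1% of an array's probe sets had a lower value than Akr1c18. Detection calls were not used here, so whether Akr1c18 is expressed in these cells cannot be read from its values, and differences near the low end of RMA values are compressed. On the BCR-ABL arrays 2 and 3 it had the same value to all deposited decimals, whereas all 9 values were distinct for Akr1c12 and for Akr1c13.

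**Figure D1:**
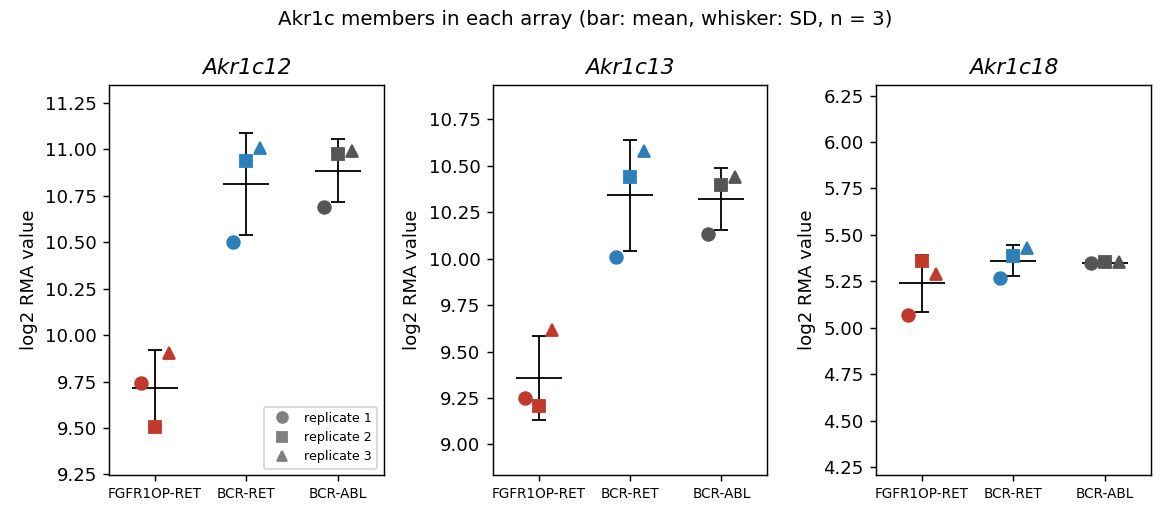
Log2 RMA values of Akr1c12, Akr1c13 and Akr1c18 on the 9 arrays by fusion, each panel spanning the same number of log2 units; markers give the replicate number, the bar is the mean and the whisker the SD of 3 arrays. Akr1c12 and Akr1c13 are lower on all 3 FGFR1OP-RET arrays than on the 6 others (gaps of 0.60 and 0.39), and Akr1c18 overlaps between all groups.

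Across all genes, the share passing a limma adjusted p under 0.05 in either direction was 1.02% for FGFR1OP-RET against BCR-ABL, 1.33% against BCR-RET, and 0.587% for BCR-RET against BCR-ABL. In 5.9% of genes all BCR-RET arrays lay below all BCR-ABL arrays, which was not so for any of the 3 members. As for FGFR1OP-RET, 2.24% had their 3 FGFR1OP-RET arrays below the 6 others, 5.13% below the BCR-ABL arrays and 8.77% below the BCR-RET arrays. Ranked from the lowest of 19938 log2 differences, Akr1c12 stood at place 3 and Akr1c13 at place 8 for FGFR1OP-RET against BCR-ABL. Against BCR-RET they stood at places 7 and 14. Akr1c18 stood at places 2678 and 3415. These places describe the values that chose the members. The RNA came from whole cell populations, so fewer cells with the transcript and less transcript per cell cannot be told apart.

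Between BCR-RET and BCR-ABL none of the 3 genes passed the test. The test was limma's, fitted to all 19938 genes with a Benjamini-Hochberg adjusted p under 0.05 as the threshold, which 0.371% of genes passed as higher and 0.216% as lower in BCR-RET. The log2 difference was -0.07 for Akr1c12 (SE 0.15, 95% interval -0.40 to 0.26, adjusted p = 0.870 by limma). It was 0.02 for Akr1c13 (SE 0.16, interval -0.34 to 0.37, adjusted p = 0.971 by limma) and 0.01 for Akr1c18 (SE 0.08, interval -0.16 to 0.18, adjusted p = 0.963 by limma). These intervals leave out a change as large as that with FGFR1OP-RET for Akr1c12 and Akr1c13, but a smaller change in either direction lies inside them. The 2 groups whose fusions differ in their kinase were thus not told apart by these genes at this spread. This fit held no pairing of arrays. With the replicate number as a block, fitted over all arrays, the limma adjusted p was 0.770 for Akr1c12, 0.934 for Akr1c13 and 0.944 for Akr1c18.

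The arrays of a group varied, and Akr1c12 and Akr1c13 varied together. Their deviations from the group mean had the same sign on 8 of 9 arrays and differed by at most 0.14. The array numbered 1 was the lowest for both genes in BCR-RET (deviations of -0.31 for Akr1c12 and -0.33 for Akr1c13) and in BCR-ABL (-0.20 and -0.19). In FGFR1OP-RET the array numbered 2 was the lowest for both (-0.21 and -0.15). Akr1c12 and Akr1c18 had deviations of the same sign on 7 of 9 arrays, so shared signs were not particular to Akr1c12 and Akr1c13. The deviations of Akr1c12 and Akr1c18 differed by up to 0.33.

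The differences of FGFR1OP-RET within replicate numbers are a description. Every FGFR1OP-RET array lay below all arrays of the other groups for Akr1c12 and Akr1c13, so their sign was fixed. These numbers were also not taken as pairs for FGFR1OP-RET. For numbers 1, 2 and 3 the Akr1c12 difference of FGFR1OP-RET was -0.94, -1.47 and -1.09 against BCR-ABL and -0.76, -1.43 and -1.11 against BCR-RET. For Akr1c13 it was -0.88, -1.19 and -0.82 against BCR-ABL and -0.76, -1.23 and -0.96 against BCR-RET. Between BCR-RET and BCR-ABL the differences within numbers lay on both sides of 0 for both genes. Against the mean of both BCR-partner fusions, FGFR1OP-RET differed by -1.13 for Akr1c12 (SE 0.13), -0.97 for Akr1c13 (SE 0.14) and -0.12 for Akr1c18 (SE 0.07).

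The other genes of the cluster took no part in the choice of the members and were tested in every comparison. With Akr1cl, a related gene outside chromosome 13, there were 7 measured, and none passed in any of the 3 comparisons. Calls in this and the later lists are those of the fit without a replicate block. With that block more listed genes passed, and to which lists they belong was not read out. Background calls were 0.787% higher and 0.231% lower for FGFR1OP-RET against BCR-ABL, and 0.853% higher and 0.476% lower against BCR-RET. The list median was 0.00 against BCR-ABL and -0.07 against BCR-RET, beside medians of 0.00 and -0.03 over all genes. Akr1c19, which lies between Akr1c13 and Akr1c12, had means of 5.02 ± 0.09 with FGFR1OP-RET, 5.09 ± 0.05 with BCR-RET and 4.99 ± 0.05 with BCR-ABL. Its differences of 0.03 from BCR-ABL and -0.07 from BCR-RET did not pass (limma adjusted p = 0.926 and 0.607).

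Akr1c6, a hydroxysteroid dehydrogenase of liver, had means of 6.39, 6.53 and 6.46 in the same order of groups. Akr1c14, which acts on steroids as well, had 5.46, 5.54 and 5.46. Akr1c20 had 5.99, 6.08 and 6.08, and Akr1c21 had 5.40, 5.39 and 5.39 with the same value on all 3 BCR-RET arrays. Akr1e1 had 5.16, 5.11 and 5.30, and Akr1cl had 5.85, 5.86 and 5.82. The values of all 7 genes were in the low part of the arrays, between 4.94 and 6.58, so the test could not show a change in a transcript below the arrays' range. Cross-hybridisation between the Akr1c12 and Akr1c13 probe sets was not tested, and the genes are close relatives, so their values may not be independent.

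The surroundings of the cluster were read in the same way, with the 9 protein-coding genes before it and the 10 after it in the gene table. All 19 were measured and none passed in any comparison. Of all genes 1.02% passed for FGFR1OP-RET against BCR-ABL, 1.33% against BCR-RET and 0.587% for BCR-RET against BCR-ABL. Their differences ran from -0.25 to 0.32 for FGFR1OP-RET against BCR-ABL, and from -0.25 to 0.36 against BCR-RET. The highest in both was Klf6, a zinc finger transcription factor gene, at 10.74 ± 0.08 with FGFR1OP-RET, 10.38 ± 0.26 with BCR-RET and 10.42 ± 0.12 with BCR-ABL. Net1, a guanine nucleotide exchange factor gene for RhoA, was lowest in BCR-RET against BCR-ABL with a difference of -0.33 (limma adjusted p = 0.140).

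**Figure D2:**
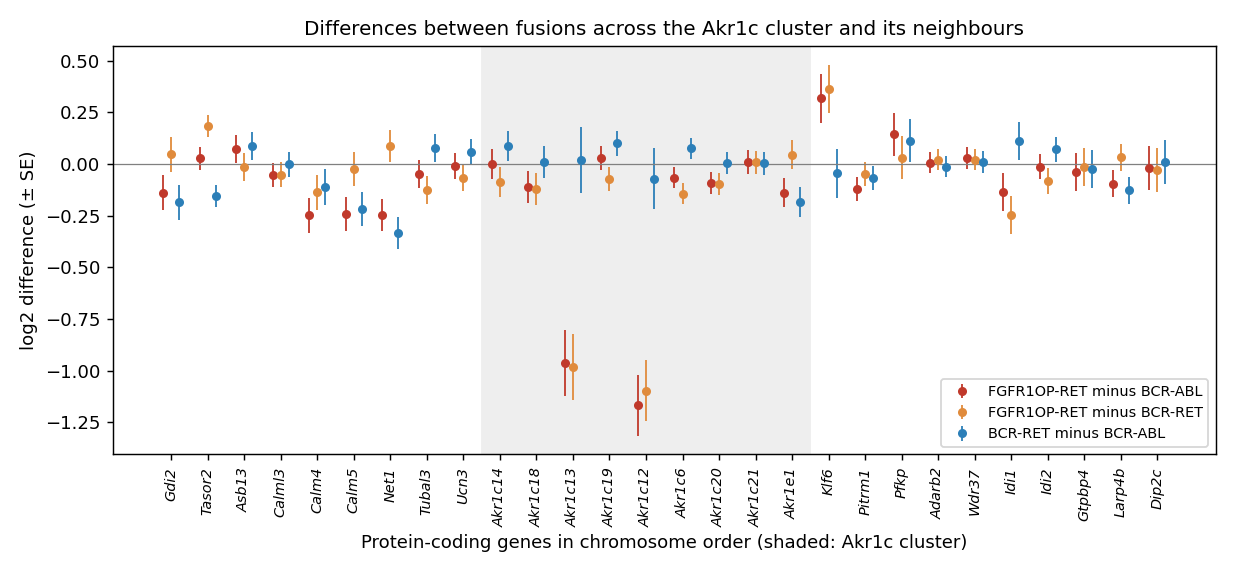
Log2 differences (± SE) of 3 comparisons for the 9 protein-coding genes before the Akr1c cluster, the 9 genes of the cluster (shaded) and the 10 after it, in chromosome order without a scale of distance. Akr1c13 and Akr1c12 lie between -0.96 and -1.17 for FGFR1OP-RET against either group, and the other genes lie between -0.33 and 0.36.

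Among 8 measured aldo-keto reductases outside the 1C branch, none passed for FGFR1OP-RET against either group. Of all genes 1.02% passed against BCR-ABL and 1.33% against BCR-RET. Akr1a1, the aldehyde reductase, had log2 means of 12.99 ± 0.08 with FGFR1OP-RET, 13.07 ± 0.13 with BCR-RET and 13.03 ± 0.17 with BCR-ABL. Akr1b10 of the aldose reductase branch had 10.62 ± 0.13, 10.85 ± 0.12 and 10.63 ± 0.09 in that order, and Akr7a5 had 10.12, 10.12 and 10.10. Kcnab3, a potassium channel subunit with an aldo-keto reductase fold, was the 1 gene that passed in BCR-RET against BCR-ABL. It was at 8.12 ± 0.01 in BCR-RET, against 7.85 ± 0.02 in BCR-ABL, and rose by 0.27 (SE 0.04, limma adjusted p = 0.0300). Leaving out any 1 of 6 arrays ended that call (adjusted p up to 0.163). The share of all genes called higher in BCR-RET against BCR-ABL was 0.371%.

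Genes of the reactions these enzymes take part in were mostly not called. Of 22 measured genes of steroid synthesis and conversion, Hsd11b1, the enzyme that regenerates active glucocorticoid, was the 1 that rose in FGFR1OP-RET against BCR-ABL. Its mean was 7.82 ± 0.30 with FGFR1OP-RET, against 7.07 ± 0.03 with BCR-ABL (difference 0.75, SE 0.13, limma adjusted p = 0.0320). The call ended when any 1 of 5 arrays was left out (adjusted p up to 0.149). None of the 22 fell, and none passed in the other comparisons. Background calls in FGFR1OP-RET against BCR-ABL were 0.787% higher and 0.231% lower. Cyp11a1, which makes pregnenolone from cholesterol, had means of 10.95 ± 0.22 with FGFR1OP-RET, 10.92 ± 0.19 with BCR-RET and 10.39 ± 0.34 with BCR-ABL, and did not pass in any comparison. None of 7 measured steroid receptor genes passed in any comparison, where between 0.587% and 1.33% of all genes passed.

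Of 26 prostaglandin and leukotriene genes none passed for FGFR1OP-RET against either group, beside 1.02% of all genes against BCR-ABL and 1.33% against BCR-RET. Pla2g4a, the phospholipase that frees arachidonic acid, fell in BCR-RET against BCR-ABL. It was at 11.27 ± 0.03 in BCR-RET, against 11.64 ± 0.02 in BCR-ABL (difference -0.36, SE 0.04, limma adjusted p = 0.00819). Without BCR-ABL replicate 2 its adjusted p was 0.0568. Of all genes, 0.216% passed as lower in BCR-RET against BCR-ABL.

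The NRF2 list, oxidative stress genes that in human cells are known to include AKR1C genes, had no member past the threshold among 29 in any comparison. Of all genes 1.02% passed for FGFR1OP-RET against BCR-ABL, 1.33% against BCR-RET and 0.587% for BCR-RET against BCR-ABL. At such shares a list of 29 without a call says little. The list median was 0.02 for FGFR1OP-RET against BCR-ABL and -0.02 against BCR-RET. Single differences ran from -0.21 to 0.62 and from -0.60 to 0.66 in that order. Nqo1, its classical target, had means of 7.37 ± 0.16 with FGFR1OP-RET, 7.71 ± 0.18 with BCR-RET and 7.45 ± 0.22 with BCR-ABL. Hmox1, the haem oxygenase gene, had 11.32 ± 0.29, 11.32 ± 0.13 and 10.70 ± 0.12 in that order. Of 31 genes of aldehyde and carbonyl metabolism, Dcxr, the xylulose reductase gene, passed in FGFR1OP-RET against BCR-RET. It fell by 0.32 (SE 0.06, limma adjusted p = 0.0493), with 9.73 ± 0.10 in FGFR1OP-RET and 10.06 ± 0.08 in BCR-RET. Each of the 9 arrays ended that call when left out (adjusted p up to 0.177). The share of all genes called lower in FGFR1OP-RET against BCR-RET was 0.476%.

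The IL-3 receptor and STAT5 list was read because of the described response of Akr1c12 to IL-3. Like the other lists, it was chosen with earlier results of these data known, so its calls are not an independent check. All 22 genes were measured. In FGFR1OP-RET against BCR-ABL, Csf2rb, Csf2rb2 and Osm rose and Pim2 fell. In FGFR1OP-RET against BCR-RET, Pim2, Il2ra and Socs1 fell and none rose. In BCR-RET against BCR-ABL, Csf2rb, Csf2rb2, Osm and Il2ra rose and none fell. The list medians of -0.03, -0.01 and 0.05 stood beside 0.00, -0.03 and 0.03 over all genes. Of all genes, 1.02%, 1.33% and 0.587% passed in either direction in the same order of comparisons.

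Pim2, a serine/threonine kinase gene induced through STAT5, was the 1 gene of the list that fell with FGFR1OP-RET against both groups. Its log2 values were 11.31, 10.81 and 11.07 on the FGFR1OP-RET arrays, against 12.13, 12.37 and 12.09 on the BCR-RET arrays and 12.14, 12.02 and 12.02 on the BCR-ABL arrays. All 3 FGFR1OP-RET arrays lay below the 6 others. Its log2 difference was -0.99 against BCR-ABL and -1.13 against BCR-RET (SE 0.12 each, limma adjusted p = 0.00511 and 0.00300). Both calls held without each array in turn and without the 3 arrays numbered 1.

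Csf2rb, the beta chain of the IL-3, IL-5 and GM-CSF receptors, was at 12.72 ± 0.14 with FGFR1OP-RET, 12.75 ± 0.11 with BCR-RET and 12.03 ± 0.10 with BCR-ABL. Csf2rb2, the IL-3-specific beta chain of the mouse, was at 11.74 ± 0.12, 12.09 ± 0.13 and 11.18 ± 0.12 in that order. Il3ra, the alpha chain, did not pass in any comparison. Osm, the oncostatin M gene and a STAT5 target, was at 10.01 ± 0.02, 10.27 ± 0.12 and 9.45 ± 0.10. These 3 genes were higher in both RET fusions, which share the BCR-ABL arrays as their reference. Il2ra, a receptor chain induced through STAT5, was at 11.09 ± 0.23 with FGFR1OP-RET and 11.99 ± 0.07 with BCR-RET, against 11.19 ± 0.08 with BCR-ABL. Socs1, a feedback inhibitor of cytokine receptors, fell by 0.37 in FGFR1OP-RET against BCR-RET (SE 0.07, limma adjusted p = 0.0494), and each of the 9 arrays ended that call when left out.

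The calls of Csf2rb and Osm in both comparisons, of Csf2rb2 in BCR-RET against BCR-ABL and of Il2ra in FGFR1OP-RET against BCR-RET held without each array in turn. Leaving out any 1 of 4 arrays ended that of Csf2rb2 in FGFR1OP-RET against BCR-ABL (limma adjusted p up to 0.131) and that of Il2ra in BCR-RET against BCR-ABL (up to 0.0711). Without the 3 arrays numbered 1, the Pim2 calls and that of Osm in BCR-RET against BCR-ABL held and the other calls of this list ended (limma adjusted p of 0.0683 to 0.213). Over all 9 lists, 5, 4 and 6 of 171 measured genes passed, for FGFR1OP-RET against BCR-ABL, FGFR1OP-RET set against BCR-RET, and BCR-RET against BCR-ABL. Among all genes the shares that passed were 1.02%, 1.33% and 0.587% in that order. With the replicate number as a block, 12 passed in BCR-RET against BCR-ABL, the comparison whose numbers were taken as pairs. Of all 19938 genes the block called 362 there, in place of 117 without it. The share of 0.587% is therefore not the background of these 12. That block was fitted over all 9 arrays, those of FGFR1OP-RET among them, so it is not a fit of these pairs alone.

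**Figure D3:**
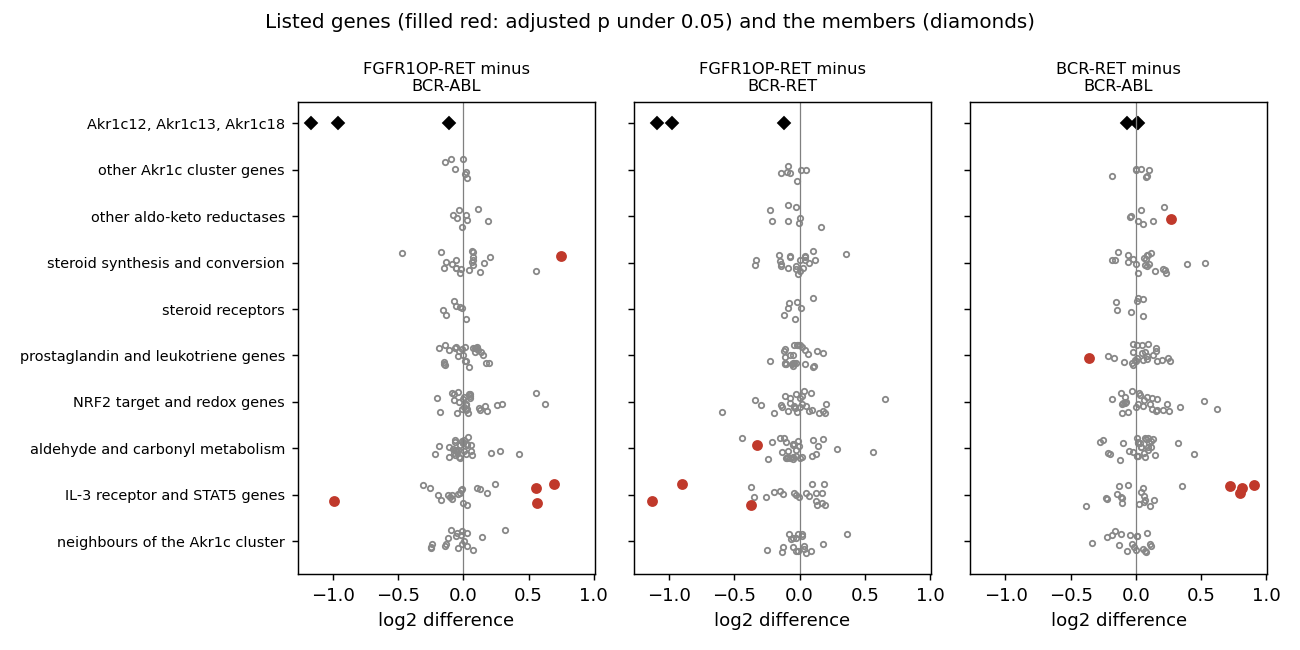
Log2 differences of the measured genes of 9 lists, of which 8 were written out by name and 1 holds the neighbours of the cluster, in 3 comparisons; filled red points passed a limma adjusted p under 0.05, open points did not, and diamonds are Akr1c12, Akr1c13 and Akr1c18. Pim2 at -0.99 and -1.13 is the lowest listed gene in both comparisons of FGFR1OP-RET, where Akr1c12 and Akr1c13 also lie lower than every other aldo-keto reductase shown.

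The genes whose pattern was most like Akr1c12 were found by the root mean square difference between their log2 values over the 9 arrays, after each gene's own mean was taken off. Akr1c13 was the closest of all genes, at 0.10. Next came Pim2 at 0.22, Havcr2, an inhibitory receptor gene of T cells, at 0.24, Ccr4, a chemokine receptor gene, at 0.26, Pros1, the gene of anticoagulant protein S, at 0.26, and Rgl1, a Ral guanine nucleotide exchange factor gene, at 0.27. Predicted genes, clones and unnamed probe sets were left out by rule, which for Akr1c13 passed over the gene at place 3. The 5 next named for Akr1c13 after Akr1c12 were Rgl1 (0.21), Pros1 (0.23), Ccr4 (0.23), Alg14 (0.24) and Tmem176a (0.25). Akr1c18 was at place 2439 in likeness to Akr1c12, at 0.51.

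These genes were found by their likeness on the same arrays, so their differences are a description. FGFR1OP-RET differed from BCR-ABL and from BCR-RET by -0.68 and -0.72 for Pros1 and by -0.73 and -0.67 for Rgl1, with BCR-RET minus BCR-ABL at 0.03 and -0.06. Havcr2 had means of 9.58 with FGFR1OP-RET, 10.46 with BCR-RET and 10.95 with BCR-ABL, and Ccr4 had 9.26, 9.83 and 10.26 in that order. For these genes BCR-RET lay between the other groups (BCR-RET minus BCR-ABL at -0.49 and -0.43), against -0.07 for Akr1c12.

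**Figure D4:**
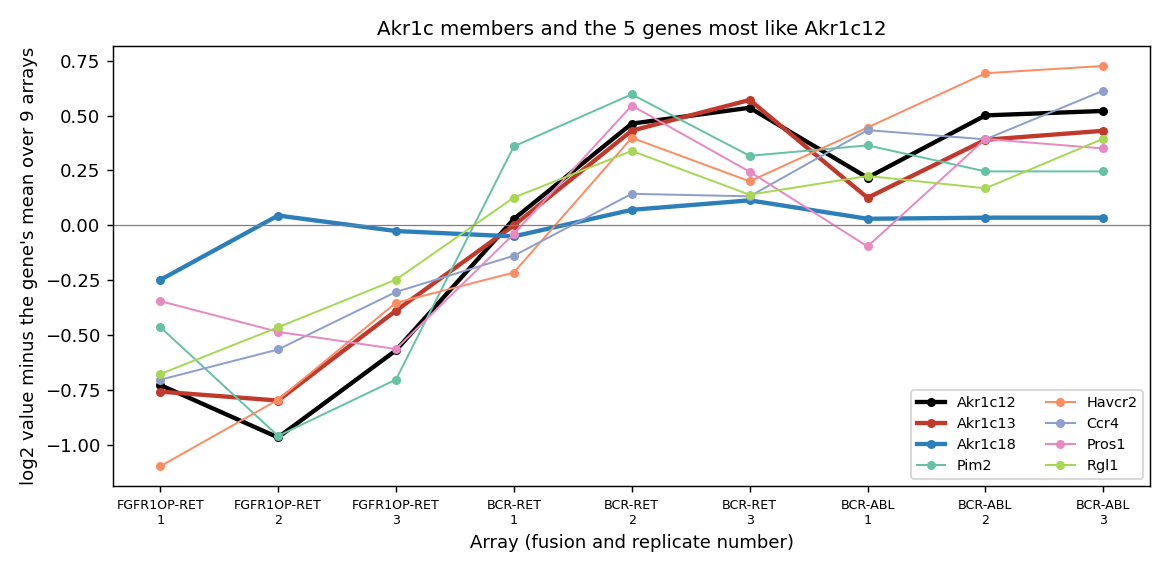
Log2 values minus each gene's own mean over the 9 arrays, for the 3 Akr1c members (thick lines) and the 5 genes most like Akr1c12 (thin lines), with arrays by fusion and replicate number; lines only join the points of a gene. Akr1c12 and Akr1c13 run together, at a root mean square difference of 0.10, while Akr1c18 is nearly flat.

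The label of the cells was read against marker genes. Of 7 markers of a haematopoietic line with the IL-3 receptor, 6 had a mean above the arrays' median value in every group, and Ptprc, Il3ra and Csf2rb lay above 91.3%, 79.8% and 95.5% of probe sets. Csf2rb, Csf2rb2 and Runx1 of these rose in both RET fusions against BCR-ABL, and Ptprc rose in FGFR1OP-RET against BCR-RET. Of 9 B lymphoid markers, 1 (Cd79b) had a mean above the arrays' median. The mean log2 value of 6 monocyte and macrophage markers was 8.87 to 9.27 on FGFR1OP-RET arrays, 8.56 to 8.72 on BCR-RET arrays and 8.37 to 8.40 on BCR-ABL arrays. Cd14 and Mpeg1 rose in FGFR1OP-RET against both groups, and Fcgr1 against BCR-ABL. The median difference of the 6 was 0.79 against BCR-ABL and 0.13 against BCR-RET. Of all genes, 0.787% passed as higher in FGFR1OP-RET against BCR-ABL and 0.853% against BCR-RET. The share was 0.371% in BCR-RET against BCR-ABL. None of the 6 passed in BCR-RET against BCR-ABL. The part of these marker changes in the Akr1c12 and Akr1c13 levels was not tested. The 6 markers of stroma, from which virus-producing cells could stem, had a mean of 7.85 to 7.98 with FGFR1OP-RET, 7.93 to 8.04 with BCR-RET and 7.88 to 7.95 with BCR-ABL. None of them passed, nor did any of 5 hepatocyte and steroidogenic or 8 mast cell and basophil markers. This does not show that these transcripts are absent. In every group, 3 of the 6 stroma and 3 of the 8 mast cell and basophil markers had a mean above the arrays' median. The same held for 2 of the 5 hepatocyte and steroidogenic markers. Cpa3 and Mcpt8, of the mast cell and basophil set, lay above 78.7% and 68.3% of probe sets. Over all probe sets, arrays of a group correlated with r of 0.993 to 0.996 and arrays of different groups with 0.989 to 0.996.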

How the data were processed

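Gene expression was measured with 9 Affymetrix arrays. For every array the deposited table holds log2 values, 1 a probe set, which the authors made by RMA with Affymetrix Expression Console (per the labels and the submitters' processing notes). No version, annotation or genome build is named there. RMA makes the value distributions of the arrays alike (medians 8.01 to 8.04), so a shift of most transcripts would not be seen, and the number of arrays limits the precision.

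Of 35557 probe sets, 21789 had 1 gene symbol, 1621 several and 12147 none. For genes with several probe sets the one with the highest mean was kept, leaving 19938 genes. Groups and replicate numbers came from the sample titles. The log2 values were fitted with limma 3.58.1 (lmFit, eBayes) in R 4.3.3, with a mean per group and a spread shared by all 9 arrays, and p-values were adjusted by Benjamini-Hochberg over all genes (threshold 0.05). Values after ± are SDs over 3 arrays; an SE belongs to a log2 difference in the fit. The fit was tested on simulated data. Promoters were aligned with Biopython 1.88.

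The members and the gene lists were chosen with earlier results of these data known. Named genes are the members, the other cluster genes, up to 4 called genes per list and comparison, and the 5 genes most like a member; genes named without a call, as examples of a list or for its range, and the promoter words were chosen after their values were seen. Deviations from the group means of same-numbered arrays correlated across genes with r of 0.617, 0.155 and 0.367 for BCR-RET and BCR-ABL, all above the limit of 0.1, so these numbers were taken as pairs. For number 2 the correlation of FGFR1OP-RET was -0.128 with BCR-ABL and -0.152 with BCR-RET, so those were not. The main fit held no pairing term, and the replicate block was fitted over all arrays, including those not taken as pairs. Alternatives were the replicate block, all probe sets, no dim genes, an intensity trend, equal array medians, only the groups compared, and leaving out arrays.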

Additional observations from a re-analysis of the deposited data

How the results depend on the processing

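The FGFR1OP-RET differences of the 3 members kept their sign and moved by less than the SD between replicates under all alternatives run. Most of this was fixed in advance. The replicate block, all probe sets, no dim genes, the intensity trend and only the groups compared cannot change a difference of group means here. For Akr1c12 and Akr1c13 every FGFR1OP-RET array lay below all arrays of the other groups, so leaving out arrays could not turn the sign. Leaving out each array in turn gave -1.27 to -1.06 for Akr1c12, -1.09 to -0.89 for Akr1c13 and -0.17 to -0.02 for Akr1c18 against BCR-ABL. Against BCR-RET it gave -1.25 to -0.99, -1.15 to -0.86 and -0.18 to -0.04 in that order. Between BCR-RET and BCR-ABL, where the values lie near 0, it gave -0.169 to 0.0865 for Akr1c12, -0.0998 to 0.186 for Akr1c13 and -0.0231 to 0.0591 for Akr1c18, with limma adjusted p of at least 0.690, so the sign turned with the array left out and the cause was not tested. Without dim genes Akr1c18 was not in the fit and has no value.

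Counts of called genes depended on the settings. In the order FGFR1OP-RET against BCR-ABL, FGFR1OP-RET set against BCR-RET, and BCR-RET against BCR-ABL, 203, 265 and 117 genes passed. A replicate block gave 576, 1135 and 362, and 12, 14 and 12 of the listed genes in place of 5, 4 and 6. The lists of the added genes were not read out. Statements that none of a list passed thus hold for the main fit only. With all probe sets 121, 101 and 73 passed, and with only the groups compared, hence fewer arrays, 94, 34 and 56. Without the 3 arrays numbered 1, an alternative chosen after seeing the data, 62, 67 and 28 genes and 2, 2 and 2 listed genes passed. Leaving out each array gave 70 to 185, 86 to 194 and 28 to 114 genes, and 3 to 6, 2 to 3 and 3 to 7 listed genes. The fewest were without BCR-ABL replicate 2, FGFR1OP-RET replicate 2 and BCR-ABL replicate 2. Each BCR-ABL replicate and BCR-RET replicate 2 lowered all 3 counts by over 1.5 times when left out. So did FGFR1OP-RET replicate 2 for both comparisons of FGFR1OP-RET, BCR-RET replicate 3 for both comparisons of BCR-RET, and FGFR1OP-RET replicate 1 for FGFR1OP-RET against BCR-RET. The replicate block left each member difference as it was and changed no member's call.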
